A study of Rattus norvegicus with 4 samples.

Results

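The interferon response genes were 39 rat genes listed by symbol, of which 37 were measured here, among 16581 genes that the arrays named. They were separated by role into 14 signalling genes (13 measured) and 25 effector genes (24 measured). A gene was measured where an array probe carried a RefSeq accession that the RefSeq gene table of the GRCr8 assembly pairs with its symbol. No probe was matched in this way to the receptor gene Ifnar2 or to the RNA sensor gene Ddx58, so their levels were not analysed here. The list names them by function, with no threshold on a measured value.

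Total RNA came from NR8383 cells, a line of rat alveolar macrophages first obtained by washing a lung, after 20 passages. The cells were grown for 48 h, and NRCWE049, carbon nanotubes carrying amino groups (NH2), was then applied at 1.2 cm²/cm² for 4 h. The 4 samples used here were 4 biological replicates of this 1 exposed group, each hybridised to 1 one-colour Agilent array. Unexposed control arrays were not analysed here, so the values describe exposed cells of 1 cell line and cannot show whether the nanotubes changed any gene.

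Interferons are secreted proteins that warn cells of viruses. Type I interferons such as interferon beta bind the receptor of IFNAR1 and IFNAR2, and interferon gamma binds that of IFNGR1 and IFNGR2. The receptor-bound kinases TYK2, JAK1 and JAK2 phosphorylate STAT proteins such as STAT2, which together with IRF9 bind interferon-stimulated response elements in the promoters of effector genes. Macrophages carry these receptors, sense viral RNA and DNA, and can make interferon beta through IRF3 and IRF7.

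Transcripts for receiving an interferon signal were detected in the exposed cells, and Ifnb1, the 1 ligand gene among the measured members, was not well above background. Of 13 measured signalling genes, 12 (92.3%) were detected, meaning that a probe was well above background by Agilent's flag on 4 of 4 arrays, and only Ifnb1 was on no array. Of 24 measured effector genes, 19 (79.2%) were detected, and Ifih1, Ifit1, Ifit3, Rsad2 and Ifitm3 were on no array. Each measured member was therefore detected on all 4 arrays or on none. Over all 16581 named genes 52.5% were detected and 42.0% were on no array, so both groups of members were detected more often than named genes at large, without a test of that difference. The array reads RNA of the whole culture, so fewer cells with a transcript and less of it per cell cannot be told apart.

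A gene's level is its log2 signal minus the log2 of that array's 75th percentile, taken over probes detected on all 4 arrays, and levels are listed for replicates 1 to 4 in that order. Levels compare replicates of 1 gene only, because probes differ in how well they bind. The lowest signal of any detected probe was 16.7, 18.0, 20.0 and 20.1 fluorescence units on the 4 arrays, or a level of -6.97 to -6.78, and serves as a floor. Of macrophage markers 8 of 10 were detected, Cd68, Csf1r, Spi1 and Pparg among them, and Marco and Adgre1 were on no array. Of markers of plasmacytoid dendritic cells, T and NK cells, epithelium and fibroblasts, 5 of 19 measured were detected: Bst2, Tcf4, Cd3d, Cd4 and Nkg7. No epithelial or fibroblast marker was. Tlr9, of plasmacytoid dendritic cells, was above background on 3 arrays, and the fibroblast marker Dcn on 1. Bst2 is itself a member, and the part of these markers in the members' values was not tested. Replicates 3 and 4 were the closest pair, with a median absolute difference of 0.099 over all detected probes, against 0.169 to 0.230 for the other pairs. Replicate spots of a probe on 1 array had a median SD of 0.0608 to 0.0851.

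Ifnb1, which encodes interferon beta, had signals of 6.01, 3.98, 6.07 and 7.67 units, between 0.222 and 0.381 times the floor of the same array. With Agilent's less strict flag for positive and significant signal it counted as detected on all 4 arrays. A low signal from 1 probe therefore gives a bound and no level.

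All 3 measured receptor subunits were detected. Ifngr1, the ligand-binding subunit of the interferon gamma receptor, had levels of 1.72, 1.67, 1.68 and 1.81, and Ifngr2, its signalling subunit, had 0.66, 0.75, 0.80 and 0.79. The replicates of both genes lay close together, each with an SD of 0.06 (n = 4), and 9.64% of detected genes had a smaller SD than Ifngr1 and 10.1% a smaller one than Ifngr2. Ifnar1, a subunit of the type I receptor, had levels of -3.31, -3.45, -3.38 and -2.98 (mean -3.28 ± 0.21, SD, n = 4). Replicate 4 was the highest for Ifnar1, at 1.38 times the lowest, and its signal was 10.1 to 15.1 times the floor.

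The kinase and STAT members were detected as well. Tyk2, the kinase bound to IFNAR1, had levels of -2.02, -2.36, -2.22 and -2.27 (SD 0.15, n = 4). Its other probe was also detected on all arrays and was likewise highest in replicate 1 and lowest in replicate 2. Stat2, a transcription factor of the type I response, had levels of 1.0, 0.96, 1.18 and 1.21 (SD 0.12, n = 4), lowest in replicate 2.

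All 7 interferon regulatory factors were detected. Irf3, the latent factor that starts Ifnb1 transcription, had levels of 1.25, 1.22, 1.29 and 1.24, with an SD of 0.03 (n = 4) from a probe of 10 spots per array. Its other probe, of lower signal, had an SD of 0.22, so the narrow spread of Irf3 belongs to that 10-spot probe. Irf7, an interferon-induced amplifier of interferon production, had levels of -2.94, -2.43, -2.70 and -2.83, and its highest replicate, 2, was 1.43 times its lowest, 1. Irf9, the DNA-binding partner of STAT2, had levels of -1.10, -0.77, -0.77 and -0.87. It was lowest in replicate 1 with both of its probes, which were highest in different replicates, 2 and 4.

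The other factors spanned at most 1.33-fold between replicates. Irf1, an activator induced by interferon gamma, had levels of 0.03, 0.22, 0.36 and 0.29, and its antagonist Irf2 had -1.5, -1.40, -1.15 and -1.15. Both were lowest in replicate 1. The second probe of Irf2 was on no array above background, so Irf2 counts as detected through 1 of its 2 probes. Irf4, a factor of lymphoid and myeloid differentiation, had levels of -2.10, -2.15, -1.74 and -1.78, and its second probe was above background on 2 of 4 arrays. Irf5, a factor of inflammatory macrophages, had levels of 1.82, 1.71, 1.64 and 1.58, highest in replicate 1.

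**Figure D1:**
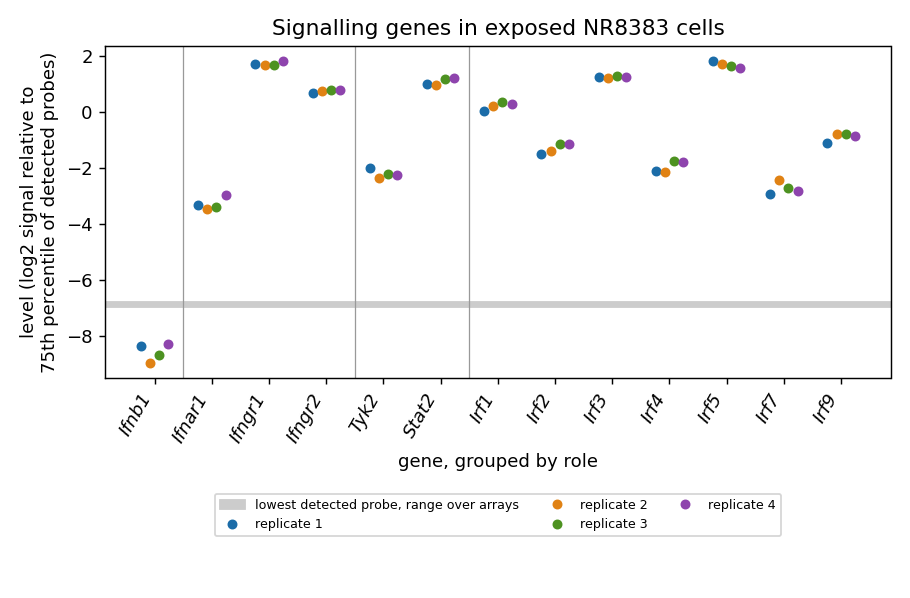
Levels of the 13 measured signalling genes (y axis, log2 signal relative to the 75th percentile of detected probes; each point is 1 replicate), with lines between role groups. The grey band is the floor of detected probes over the 4 arrays (-6.97 to -6.78); the Ifnb1 points lie below it and the points of the other 12 genes lie above it.

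Of the RNA sensors, Dhx58 was detected and Ifih1 was not. Dhx58 encodes LGP2, which modulates the sensing of viral RNA, and had levels of -1.16, -1.26, -1.02 and -0.79 (SD 0.20, n = 4). Ifih1 encodes MDA5, a sensor of long viral RNA, and gave signals of 3.74, 3.75, 4.19 and 14.5 units, all below the floor. Replicate 4 stood above the others for Ifih1, still at 0.719 times that array's floor.

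All 3 genes of ISG15 and ubiquitin were detected. Isg15, the ubiquitin-like protein attached to other proteins in the interferon response, had levels of -2.70, -2.81, -2.73 and -2.89 (SD 0.08, n = 4). Usp18, which removes ISG15 from proteins and dampens the type I receptor, had levels of -3.10, -3.05, -3.72 and -3.63. Replicate 2 was 1.59 times replicate 3 for Usp18, and its SD of 0.35 was above that of 92.8% of detected genes. Trim25, a ubiquitin ligase of the RNA-sensing path, had levels of 0.59, 1.05, 0.85 and 0.87. Both of its probes were highest in replicate 2, but they were lowest in different replicates, 1 and 3. Of the 7 members with several probes that were all detected, 4 had the same highest replicate with each probe.

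Among effectors that act on RNA, 6 of 8 were detected, and the 3 measured IFIT genes differed in detection. Ifit2, of a family that binds foreign RNA, was detected at signals of 37.2, 57.1, 67.6 and 87.1 units, 2.23 to 4.33 times the floor. Ifit1 had 4.13 to 5.19 units and Ifit3 4.21 to 5.71 units over the arrays, below the floor on each. The levels of Ifit2 were -5.73, -5.12, -5.20 and -4.79, and its replicate 4 was 1.92 times its replicate 1, the widest span of any detected member at these settings. With normexp background correction the mean of Ifit2 was -4.14 with an SD of 0.10, against -5.21 with an SD of 0.39. That correction adds an offset of 50 units, which by itself raises low levels and narrows their spread. The smaller SD is therefore no separate measure of the spread.

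Oas1a, an oligoadenylate synthetase that activates the RNA-cutting enzyme RNase L, had levels of -1.94, -2.13, -2.05 and -2.17, and both of its probes were highest in replicate 1. Oasl, a related gene, had levels of -4.56, -5.22, -5.15 and -4.80. Isg20, an RNA exonuclease, had levels of -3.23, -2.59, -3.25 and -3.30, with replicate 2 apart from the other replicates, which lay within 0.07 of each other.

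Eif2ak2 encodes PKR, which halts translation when it binds viral RNA, and had levels of -5.03, -4.76, -4.74 and -4.41. Its probes did not agree on the order of replicates: the other probe was highest in replicate 1, where this one was lowest. Adar, an enzyme that edits adenosines in RNA, had levels of -5.53, -5.30, -5.69 and -5.22. Its mean was -4.28 under normexp, with the same offset, against -5.43. The probes that gave the levels of Oasl, Eif2ak2 and Adar were dim, at 2.41 to 5.62 times the floor. The other probe of Eif2ak2 was dimmer still, at 34.7, 31.3, 27.0 and 35.5 units. In replicate 1 the spots of Oasl and Adar, and a spot of Irf3, lay in areas of that array where many neighbours were low.

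Of 9 members that act on entry, replication or release of viruses, 7 were detected. Bst2, which encodes tetherin, a membrane protein that holds budding virus at the cell surface, had levels of 3.14, 3.46, 3.61 and 3.58 and signals of 1041 to 1525 times the floor. Mx2 and Mx1, GTPases that block viral replication, had levels of 0.76, 1.55, 1.12 and 1.03 for Mx2 and of -4.65, -4.24, -4.79 and -4.94 for Mx1. Both were highest in replicate 2, at 1.74 times the lowest replicate for Mx2 and 1.63 times for Mx1. The Mx1 probe was dim, at 3.87 to 5.82 times the floor, against 199 to 324 times for Mx2. Rsad2 encodes viperin, an enzyme that makes a chain-terminating nucleotide, and neither of its 2 probes was above background on any array.

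The 3 interferon-induced transmembrane genes, which hinder viral fusion, also differed in detection. Ifitm2 had levels of -2.30, -2.87, -2.79 and -2.91, and Ifitm1 had -4.77, -5.14, -5.35 and -5.13. Both were highest in replicate 1, though the Ifitm1 probe was dim, at 3.1 to 4.3 times the floor. Ifitm3 gave 4.43 to 6.04 units over the arrays, below the floor on each. Ifitm1 and Ifitm2 were read by 10 spots per array and Ifitm3 by 2. The sequences of the probes were not used here, so how far probes of the IFITM, IFIT, OAS and MX families bind each other's transcripts was not tested.

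Samhd1, which depletes the building blocks of viral DNA, had levels of -3.76, -4.05, -4.07 and -3.84 (SD 0.15, n = 4). Gbp2, a guanylate-binding GTPase that attacks the vacuoles of pathogens, had -1.06, -1.24, -0.98 and -0.99 (SD 0.12, n = 4). The interferon-induced genes Ifi35 and Ifi44 completed the effectors. Ifi35 had levels of 0.30, -0.03, 0.00 and -0.02, with replicate 1 apart, and Ifi44 had -2.25, -2.28, -2.45 and -2.59.

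**Figure D2:**
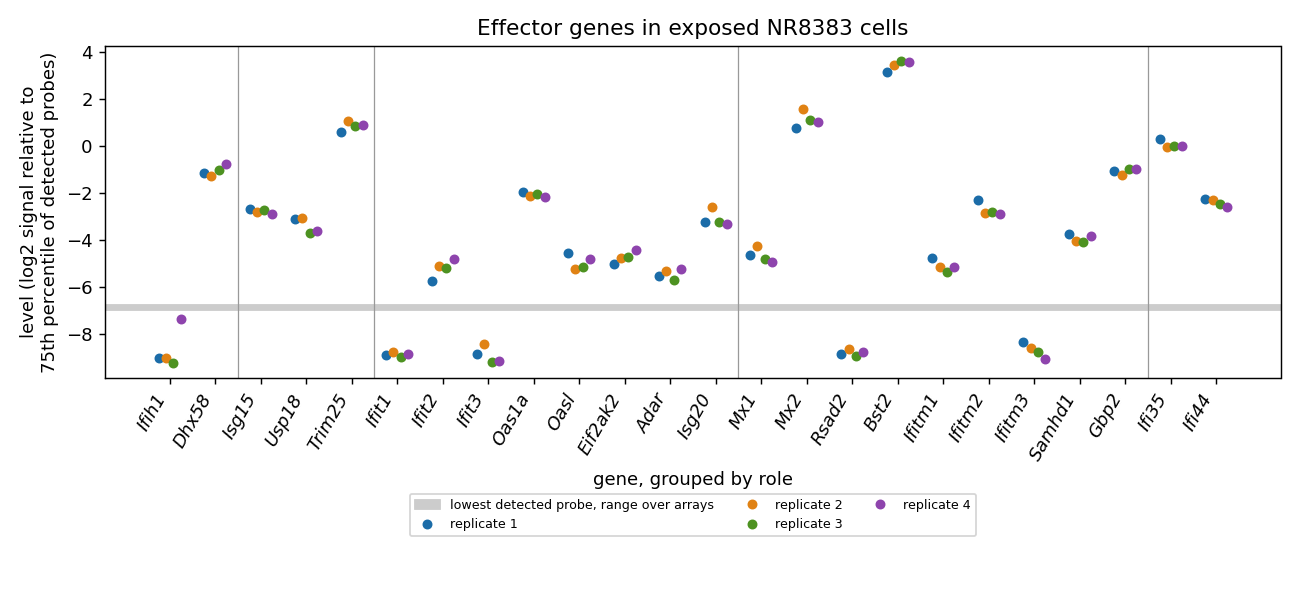
Levels of the 24 measured effector genes (y axis, log2 signal relative to the 75th percentile of detected probes; each point is 1 replicate), with lines between role groups. The points of Ifih1, Ifit1, Ifit3, Rsad2 and Ifitm3 lie below the grey floor (-6.97 to -6.78) on all 4 arrays, and the points of the other 19 genes lie above it.

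The promoters of the members were searched for 1 short form of the sequence that the STAT and IRF proteins bind, so other forms were not counted. The core searched was GAAANNGAA on either strand, a short form of the interferon-stimulated response element, in RefSeq windows of the GRCr8 assembly from 250 bases before to 50 after the transcription start. Windows were matched for 28 members, and none for Tyk2, Irf2, Ddx58, Dhx58, Isg15, Usp18, Ifit1, Ifit2, Adar, Mx2 or Ifitm1. The core was in 11 of 16 effector windows (68.8%) and in 1 of 12 signalling windows (8.33%), that of Irf7, against 9.71% of all 33469 windows. The gamma-activated sequence TTCNNNGAA, which reads the same on both strands and can share letters with the core, was in 4 of 16 effector and 3 of 12 signalling windows (25.0% each), against 8.87% of all windows.

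The promoters shown are those of the effectors with the most matches to the core, 2 each. They come from 3 detected effectors and 1 effector below background. Capitals mark the matches.
Bst2, chr16:18254918-18255217, minus strand: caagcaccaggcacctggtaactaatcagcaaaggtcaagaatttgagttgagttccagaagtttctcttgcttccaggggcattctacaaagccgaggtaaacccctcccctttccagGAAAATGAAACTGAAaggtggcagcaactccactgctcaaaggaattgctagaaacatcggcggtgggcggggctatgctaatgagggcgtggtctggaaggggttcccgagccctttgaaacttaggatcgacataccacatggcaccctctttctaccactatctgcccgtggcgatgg
Oas1a, chr12:41330216-41330515, plus strand: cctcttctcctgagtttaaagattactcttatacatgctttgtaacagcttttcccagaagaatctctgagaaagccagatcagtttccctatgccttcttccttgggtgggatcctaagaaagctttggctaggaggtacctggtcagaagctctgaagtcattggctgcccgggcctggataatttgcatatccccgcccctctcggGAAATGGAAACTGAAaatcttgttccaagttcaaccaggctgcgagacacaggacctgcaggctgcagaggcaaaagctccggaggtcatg
Ifi44, chr2:243303791-243304090, minus strand: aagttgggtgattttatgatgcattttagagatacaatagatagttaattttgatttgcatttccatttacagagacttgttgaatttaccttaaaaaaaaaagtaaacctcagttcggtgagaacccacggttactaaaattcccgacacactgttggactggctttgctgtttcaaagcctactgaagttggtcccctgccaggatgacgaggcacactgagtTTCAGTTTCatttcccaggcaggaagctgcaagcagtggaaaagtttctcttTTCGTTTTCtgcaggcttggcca
Ifit3, chr1:241527076-241527375, plus strand: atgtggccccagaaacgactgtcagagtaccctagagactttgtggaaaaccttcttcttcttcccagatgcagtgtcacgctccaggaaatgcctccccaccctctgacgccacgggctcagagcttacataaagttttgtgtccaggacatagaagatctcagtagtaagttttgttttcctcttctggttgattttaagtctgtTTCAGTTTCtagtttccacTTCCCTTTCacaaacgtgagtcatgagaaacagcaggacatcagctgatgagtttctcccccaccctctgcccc
In Bst2 and Oas1a the 2 matches overlap and form 1 run, which starts 131 bases before the start in Bst2 and 41 before it in Oas1a. In Ifit3 they start 43 and 24 bases before it, and in Ifi44 25 before and 28 after it. Ifit3 therefore held 2 matches beside a signal below the floor on all 4 arrays.

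The matches of the other 8 members are shown with 6 bases on either side, so that the letters between the repeats can be compared.
Irf7: ttaggtTTCATTTTCccgaga
Ifih1: agaatcGAAACAGAAaccgat
Eif2ak2: cgccggGAAAACGAAacagag
Isg20: gaaccaGAAACTGAAactaaa
Rsad2: tcaactTTCATTTTCagaaaa
Ifitm2: caacagGAAAAGGAAactgct
Ifitm3: attcagGAAAAGGAAacttct
Gbp2: tttagtTTCACTTTCattgtc
The form GAAACTGAA, read on either strand, was in the windows of 5 members (Oas1a, Bst2, Ifi44, Isg20 and Ifit3) and in 0.651% of all windows; it was picked out after the matches were seen. Ifitm2, detected, and Ifitm3, below background, held the same form GAAAAGGAA. All 4 effectors below background that had a window, Ifih1, Ifit3, Rsad2 and Ifitm3, held the core, as did 7 of 12 detected effectors. A match describes letters and not binding, and a window with no match says only that these letters are not in it.

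**Figure D3:**
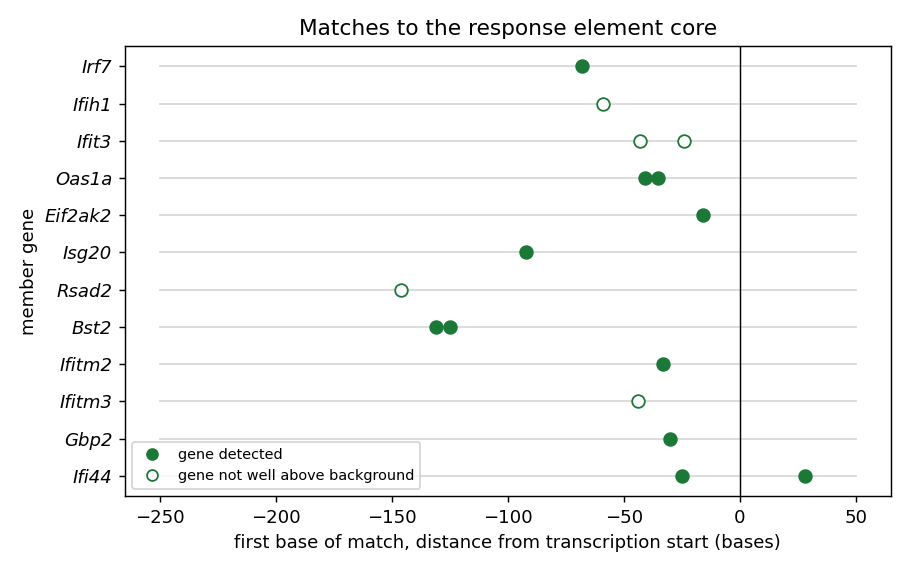
Positions of the 16 matches to GAAANNGAA in the promoters of 12 members (x axis, distance of the first base from the transcription start in bases; filled points, gene detected; open points, gene not well above background). Only the second match of Ifi44 lies after the start, and open points stand at Ifih1, Ifit3, Rsad2 and Ifitm3.

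Effectors had a higher median SD between replicates than all detected genes, and signalling genes a similar one. None of the 31 detected members spanned more than 2-fold between its highest and lowest replicate, against 2.66% of all 8713 detected genes, a share so low that a count of 0 among 31 is near it. The median SD was 0.147 over the 12 signalling genes and 0.219 over the 19 effectors, against 0.151 over all detected genes, and the difference between these medians was not tested. Without replicate 1 the signalling median was 0.0736 and the effector median 0.158, with no value over all detected genes from the same arrays to set beside them. Of the effectors 15 of 19 had an SD above the median of all detected genes, and of the signalling genes 5 of 12, together 20 of 31 members.

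Signal moved with this spread. Of the detected effectors 6 had a mean signal under 100 units and no signalling gene did, and all named genes below that signal had a median SD of 0.236. For 100 to 1000 units the medians were 0.206 over 5 signalling genes, 0.159 over 7 effectors and 0.167 over all named genes. Above 1000 units they were 0.1 over 7 signalling genes, 0.195 over 6 effectors and 0.117 over all named genes. The order of both groups thus changed with signal, and the part of signal in the difference was not tested.

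**Figure D4:**
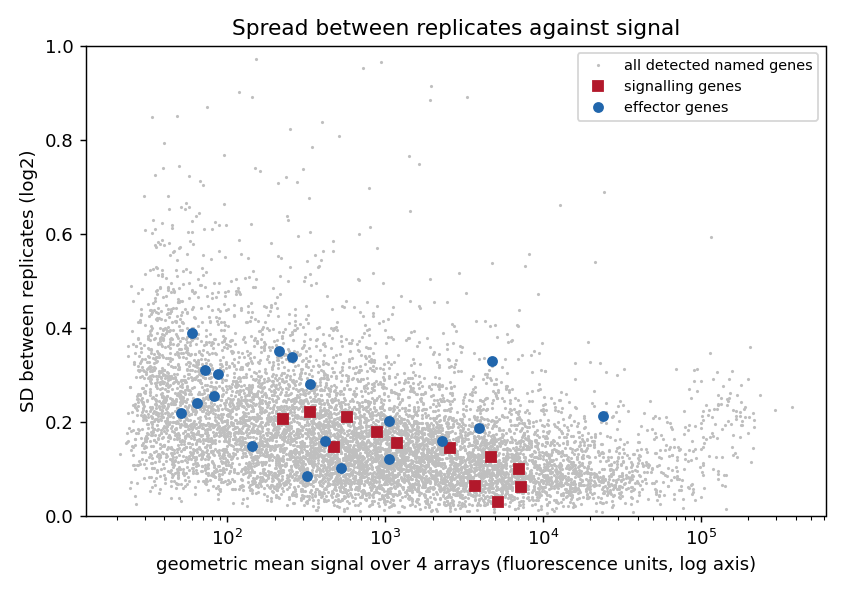
SD between replicates (y axis, log2) against mean signal (x axis, fluorescence units, log axis) for detected genes: grey points are all named genes, squares signalling genes and circles effectors; 5 genes with an SD over 1 are not drawn. The 6 effectors under 100 units have a median SD of 0.279, and the 7 signalling genes over 1000 units one of 0.1.

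Most signalling genes were lowest in replicate 1 or 2, and effectors had no such common replicate. The mean deviation of signalling genes from their own means was -0.07, -0.03, 0.05 and 0.05 in replicates 1 to 4, and that of effectors was 0.01, 0.06, -0.07 and 0.01. Effectors thus had their highest mean in replicate 2 and their lowest in replicate 3, within a range of 0.13, which was 0.06 without replicate 3. Of 12 signalling genes, 5 were lowest in replicate 1 (41.7%) and 6 in replicate 2 (50.0%), against 28.5% and 27.4% of all detected genes. None was lowest in replicate 3, against 20.4% of all detected genes, whose mean deviations stayed within a range of 0.03. Effectors were lowest in replicates 1 to 4 for 5, 4, 4 and 6 genes. The difference between the groups was not tested. Replicate 1 was the highest for 8 of 19 effectors (42.1%), against 34.6% of all detected genes, and replicate 2 for 5 of 19 (26.3%), against 24.8%.

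**Figure D5:**
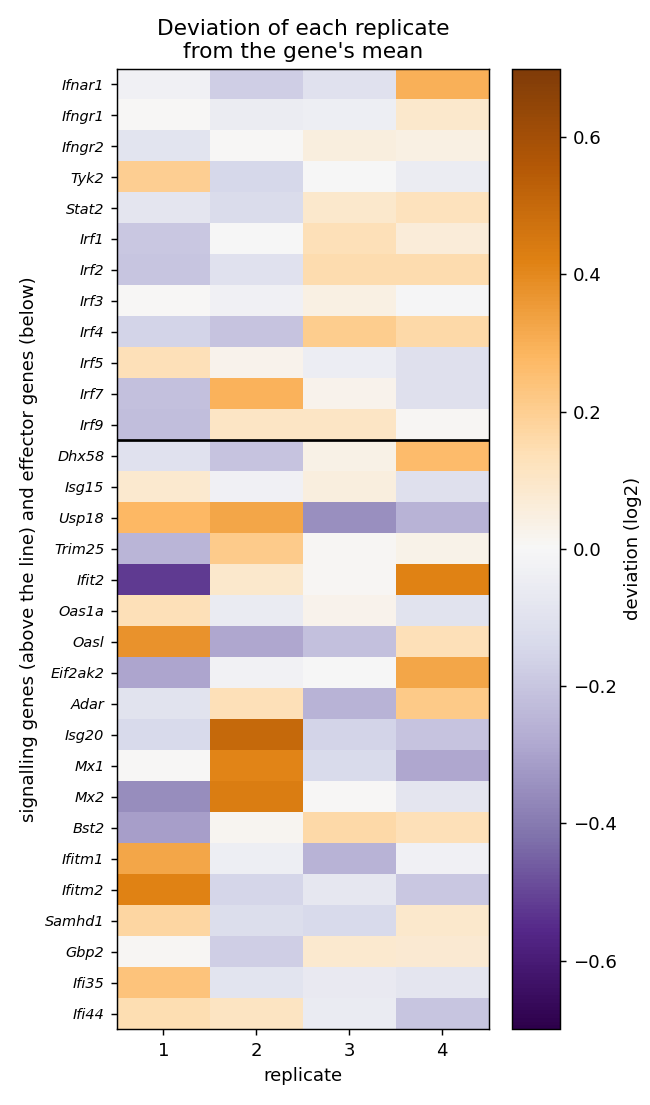
Deviation of each replicate (columns) from the gene's mean (log2, colour scale) for the 12 detected signalling genes, above the line, and the 19 detected effectors, below it. Isg20, Mx1 and Mx2 are highest in replicate 2, and Oasl, Ifitm1 and Ifitm2 in replicate 1, so effectors differ in the replicate where they peak.

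Other genes of the pathway were detected in part. Of 36 measured from a further list, 25 (69.4%) were detected, against 52.5% of all named genes: 10 of 14 signalling genes and 15 of 22 effectors. The receptor kinase gene Jak1 had levels of 1.62, 1.5, 1.75 and 1.79. Jak2, the other receptor kinase, had -4.18, -4.12, -4.09 and -3.61. Of genes that lead to Ifnb1, the adaptor genes Mavs (mean -0.56 ± 0.10, SD, n = 4) and Sting1 (-3.41 ± 0.34) and the kinase gene Tbk1 (-6.21 ± 0.31) were detected, the last at 1.29 to 2.05 times the floor. No probe was matched to Cgas.

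Of 3 further ligand genes measured, Ifna4, a type I interferon gene named after its values were seen, was detected, with levels of -5.55, -5.26, -5.22 and -5.29 and signals of 2.52 to 3.35 times the floor. The interferon gamma gene Ifng and the type I interferon gene Ifnk were on no array. Irf8, a macrophage lineage factor, was near the floor, with levels of -6.42, -6.27, -5.38 and -5.29. Of the inhibitors of cytokine signalling, Socs3 was detected at -0.89, -0.87, -1.48 and -1.40, and Socs1 was on no array. The signals of Socs1 were 12.3 to 20.0 units, 0.74 to 1.04 times the floor, and they reached it in replicates 2 and 3. Cxcl10, an interferon-induced chemokine, was detected on 3 arrays: replicate 2 had a level of 0.57, replicate 3 of 0.34 and replicate 4 of 0.23, and the replicate 1 spot carried an outlier mark. Oas2 was above background on 1 array.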

How the data were processed

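The deposited files hold a spot intensity, the processed signal after background correction, and Agilent's own flags. They were written by Feature Extraction 11.0.1.1, per the file headers. The authors' normalization between arrays, if any, was not given in the sources used here. The 4 arrays share 1 slide, so slide and group cannot be told apart. Arrays have no read depth, and their number limits the precision.

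Of 62976 spots per array, 4259 controls were removed, together with any spot that Agilent marked as a nonuniform or a population outlier, and none was saturated. Spots of a probe were averaged as log2. Because 39.3% of 45598 probes were detected on all arrays, each array was scaled to the 75th percentile over these probes, at 1970, 1980, 2493 and 2402 units. A gene's level came from its brightest probe, detected probes first. Of the probes, 21109 were named through RefSeq accessions. To find dim areas each array was divided into 12 by 10 blocks, and a block counted where over 10% of its detected spots fell short of the other arrays' median by 1 log2 unit or more.

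With 1 group no test between groups was made. Every member is named with its detection, with array values where detected; further genes named were Jak1, Jak2, Irf8, Sting1, Cgas, Mavs, Tbk1, Ifng, Socs1, Socs3, Cxcl10 and any detected on 1 to 3 arrays; promoters printed were those of up to 4 effectors with most matches, detected first. Of the further genes, 1 is not reported here. The members and lists were chosen with earlier results of these data known. Alternatives were other detection rules, scalings, background correction (normexp in limma 3.58.1, R 4.3.3, on the median spot signal with an offset of 50), probe rules, dim areas, motif settings and leaving out each replicate. Scripts ran in Python 3.11.15 with pandas 2.3.3 and matplotlib 3.10.9 and were tested on simulated data.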

Additional observations from a re-analysis of the deposited data

Results flagged for a closer look

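Dixon's ratio, the gap of an extreme replicate to its nearest neighbour over the whole range, was computed for 41 sets of 4 values. The sets were the detected members, the detected genes among the further genes chosen for naming, and the mean deviations of signalling and effector genes. The ratio set 1 replicate apart in 3 of the 41 sets, and chance alone gives about 2.05 (1 in 20). Isg20 was high in replicate 2 (ratio 0.8935), at -2.59 against -3.23, -3.25 and -3.30, and 54 detected spots around it, up to 5 rows or columns away, deviated by a median of 0.01 there. Ifi35 was high in replicate 1 (ratio 0.9199), at 0.30 against -0.03, 0.00 and -0.02, with a median deviation of 0.03 over 59 neighbours. Jak2 was high in replicate 4 (ratio 0.8405), at -3.61 against -4.18, -4.12 and -4.09, with a median deviation of -0.02 over 47 neighbours.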

How the results depend on the processing

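The count of detected signalling genes was 10 with all probes of a gene required, where 47.7% of all named genes were detected. It was 13 with Agilent's flag for a significant positive signal, where that share was 61.7%. In the main setting the count was 12 and the share 52.5%. The count of detected effectors was 19 under every detection rule and without each replicate, while the share over all named genes ran from 47.7% to 61.7%. With sensors and regulators counted as signalling, 15 of 17 signalling genes and 16 of 20 effectors were detected, beside 52.5% of all named genes. Without the spots in dim areas 17 effectors remained for the spread, as Oasl and Adar dropped out. The range of the effectors' mean deviation was 0.07 with quantile normalization and 0.06 to 0.13 without each replicate, against 0.13. For signalling genes the range was 0.07 with normexp, against 0.13. Their lowest mean was then in replicate 2, as with scaling over all probes, and in replicate 1 in the main setting. Without each replicate the median SD ran from 0.0736 to 0.153 for signalling genes and from 0.158 to 0.230 for effectors. With normexp, whose offset narrows the spread of low signals, it was 0.125 for signalling genes and 0.163 for effectors, against 0.147 and 0.219. A stricter core, GAAACNGAA, was in 6 of 28 member windows and 2.02% of all windows. The main core was in 12 member windows and 9.71% of all windows. Leaving out the 50 bases after the start kept the member count at 12, beside 8.12% of all windows. Scaling to the median of detected probes added 2.38 to 2.42 to the levels. Normexp moved 18 of 31 member levels by more than 1 SD, among them Ifit2 to -4.14 and Adar to -4.28. The mean over probes moved the levels of 7 members by more than 1 SD, Irf3 to -0.17 and Trim25 to -0.94. Averaging replicates 3 and 4, chosen after seeing the data, gave medians of 0.143 and 0.232. Causes were not tested. No paired analysis was possible because there is 1 group.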

Other observations

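Interferon-induced GTPases other than Gbp2 were looked at after their values were seen. Igtp, Ifi47 and Irgm, of the family that acts on pathogen vacuoles in rodents, were detected, with levels of 3.21, 3.18, 3.00 and 2.81 for Igtp, of -0.94, -1.57, -1.77 and -1.50 for Ifi47 and of -3.43, -4.07, -3.77 and -3.60 for Irgm. Each was highest in replicate 1. Gbp5 was detected near the floor, at 42.4 to 94.1 units, and was higher in replicates 3 and 4, while Gbp4 was on no array.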
